A study of Mus musculus with 359 samples.

Results

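The lungs of female B6C3F1 mice given 4-methylimidazole (4-MEI) by gavage at 300 mg/kg-d for 2 days were compared with the lungs of vehicle females. The comparison holds 6 libraries at 300 mg/kg-d (replicates 73, 74, 75, 76, 78 and 79) and 6 vehicle libraries (replicates 9, 10, 12, 13, 15 and 16), chosen by dose, sex, tissue and day in the sample titles, out of 359 libraries in the series. B6C3F1 is a hybrid of inbred mouse strains that is used in long-term toxicity studies, and the labels name no altered gene in these mice. Set beside this comparison were the lungs of females at 50, 100 and 200 mg/kg-d, males at 300 mg/kg-d and male vehicle, the livers of females at 300 mg/kg-d and vehicle, and the lungs of females fed 2500 ppm or control feed for 5 or 28 days. The labels used here give neither the hour of collection nor whether a library is 1 mouse or a pool, so the p-values measure the spread between these samples.

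4-MEI is a small nitrogen heterocycle that forms when sugars are heated with ammonia, as in caramel colouring, and its long-term effects in the mouse lung are the reason for interest in this tissue. The gas exchange surface of the lung is lined by flat alveolar type 1 cells and by surfactant-making type 2 cells, and the club cells of the airways carry enzymes that oxidise foreign compounds. Natural killer (NK) cells are lymphocytes of blood and lung that kill target cells with perforin and granzymes. The circadian clock of most cells is a loop in which ARNTL (also called BMAL1) and CLOCK switch on genes through E-box sequences, among them Nr1d1 and Dbp, and NR1D1 in turn represses Arntl through a sequence called the RORE.

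Totals were 15028443 to 20232366 counts per library at 300 mg/kg-d and 14746618 to 17199096 in vehicle lungs. Levels are given as CPM, counts scaled to the library total with the TMM factors of edgeR, and groups of 6 by their lowest, median and highest library. The defining transcripts of lung were high in all 12 libraries: the summed level of 13 type 2 markers was 27640 to 32670 CPM at 300 mg/kg-d and 30140 to 36510 CPM in vehicle lungs. Several libraries stood apart. Replicate 78 held 0.631 CPM of Xist, the RNA of the inactive X chromosome, against 424 to 700 CPM in the other 11 libraries, and 0.0631 CPM of Y-linked genes, where no library exceeded 0.523 CPM. Replicate 75 held 16 genes at least 4-fold above all other libraries, led by the skeletal muscle genes Myh1, Tnni2, Tnnt3 and Mylpf and the pleural macrophage genes Alox15 and Prg4. Vehicle replicate 12 held 11 such genes, led by the liver genes Alb, Serpina3k and Ahsg. Vehicle replicate 10 held 47 genes at least 4-fold below all others, and its summed heart muscle markers were 70.9 CPM against 438 to 943 CPM at 300 mg/kg-d and 274 to 960 CPM in the other vehicle lungs. The fits without 75 and 78, without vehicle 12 and without vehicle 10 are therefore given beside the genes whose call they end and the lists whose count they change most.

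Of 15240 genes tested, 1330 (8.73%) passed an adjusted p of 0.05 in edgeR's quasi-likelihood test: 555 (3.64%) were higher and 775 (5.09%) lower at 300 mg/kg-d. The differences were mostly small, with a median size of 0.37 on the log2 scale among the higher genes and 0.44 among the lower ones, and 53 higher and 95 lower genes differed at least 2-fold. The 6 libraries at 300 mg/kg-d did not overlap the 6 vehicle libraries in 530 higher genes (3.48% of those tested) and 573 lower genes (3.76%). Without 75 and 78 the test called 1349 genes, 1025 of them (77.1%) among the 1330, and without vehicle 12 it called 1135, of which 1069 were shared. In both of these fits 361 higher and 524 lower genes were called.

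Among the genes that rose were Lox, Angptl4, Pla1a, Calca, Galnt15 and Aldh3a1, whose products act on matrix, fat uptake, phospholipids, sensory signalling, protein glycosylation and aldehydes. Lox (chromosome 18, 52516067 to 52529867, minus strand) encodes lysyl oxidase, which cross-links collagen and elastin. Its lowest, median and highest levels were 165, 252 and 447 CPM at 300 mg/kg-d and 42.02, 63.5 and 103.97 CPM in vehicle lungs. All 6 treated lungs lay above all 6 vehicle lungs, and Lox rose by 2.14 on the log2 scale (SE 0.41, adjusted p = 0.000537). Aldh3a1 (chromosome 11, 61207537 to 61218421, plus strand), an aldehyde dehydrogenase that is a known target of the aryl hydrocarbon receptor (AHR), had 37.9, 52.4 and 71.4 CPM at 300 mg/kg-d and 13.3, 20.1 and 30.8 CPM in vehicle lungs. The groups did not overlap, and the rise was 1.32 on the log2 scale (SE 0.19, adjusted p = 9.18e-06). Pla1a, which encodes a phosphatidylserine-specific phospholipase, had 5.05, 7.90 and 8.64 CPM at 300 mg/kg-d and 1.64, 2.43 and 3.72 CPM in vehicle lungs, again without overlap (log2 fold change 1.57, SE 0.25, adjusted p = 6.65e-05). Calca encodes the calcitonin gene-related peptide, which in lung marks neuroendocrine cells and sensory signalling. It rose by 1.65 on the log2 scale (SE 0.33, adjusted p = 0.000873), at 2.59 to 5.25 CPM in treated lungs and 0.609 to 1.47 CPM in vehicle lungs. Of 6 tested genes of basal and neuroendocrine cells Calca alone passed, 4 were negative, and the median was -0.03. Galnt15, a glycosyltransferase gene, rose by 1.47 (SE 0.30, adjusted p = 0.0011), at 30.2 to 82.5 CPM against 15.1 to 26.7 CPM in vehicle lungs.

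The highest mean fold change by the naming rule was that of Ttyh1, a membrane protein gene, at 2.41 on the log2 scale (SE 0.43, adjusted p = 0.000262). It was a low-count gene whose groups overlapped, with 0.442, 2.45 and 4.63 CPM at 300 mg/kg-d and 0.239, 0.482 and 0.678 CPM in vehicle lungs. Angptl7, Tcf23, Nr4a3, Gpr137c, Serpina3m and Myrip rose by 1.41 to 1.88 on the log2 scale in the same test. Nr4a3 encodes an orphan nuclear receptor, and Myrip a protein that links secretory granules to the cell's motor proteins. Serpina3m has close copies in the genome, so reads could be shared with them and its value is uncertain. The smallest adjusted p-values among higher genes belonged to small and even rises: Bbs9, a cilium gene, rose by 0.49 (SE 0.07, adjusted p = 4.45e-06), Mreg by 0.77 and Cdkn1b, which encodes the cell cycle inhibitor p27, by 0.44. Cdkn1b had 105.3, 124.02 and 135.1 CPM at 300 mg/kg-d and 82.8, 89.99 and 97.02 CPM in vehicle lungs, without overlap.

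The steepest fall by the rule was that of Gsg1l (chromosome 7, 125878420 to 126082411, minus strand), known in brain as a subunit of AMPA glutamate receptors. Its levels were 0.343, 1.20 and 2.07 CPM at 300 mg/kg-d and 4.12, 6.43 and 7.58 CPM in vehicle lungs. No treated lung reached the lowest vehicle lung, and Gsg1l fell by 2.36 on the log2 scale (SE 0.30, adjusted p = 8.73e-07). Olfml3, an olfactomedin-like secreted protein gene, had 58.3, 83.7 and 99.6 CPM at 300 mg/kg-d and 125.7, 151.99 and 177 CPM in vehicle lungs. It fell by 0.90 (SE 0.11) with the smallest adjusted p of all genes named, 8.07e-07. Scn3a, a voltage-gated sodium channel gene, fell by 1.40 (SE 0.27, adjusted p = 0.000578), at 8.92 to 27.3 CPM against 35.8 to 54.6 CPM in vehicle lungs. Slc38a5, an amino acid transporter gene, fell by 1.33 (SE 0.19, adjusted p = 1.12e-05) and Col17a1, which encodes a collagen that anchors epithelium to its base, by 1.24 (SE 0.18, adjusted p = 1.37e-05), both without overlap. The other genes among the 15 steepest falls were Dbp, Eomes, Ms4a4c, Ncr1, Gzma, Tlr12, Ppp2r2c, Nkg7, Ccdc42, Klri2, S1pr5 and Ccl5, most of them genes of lymphocytes.

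**Figure D1:**
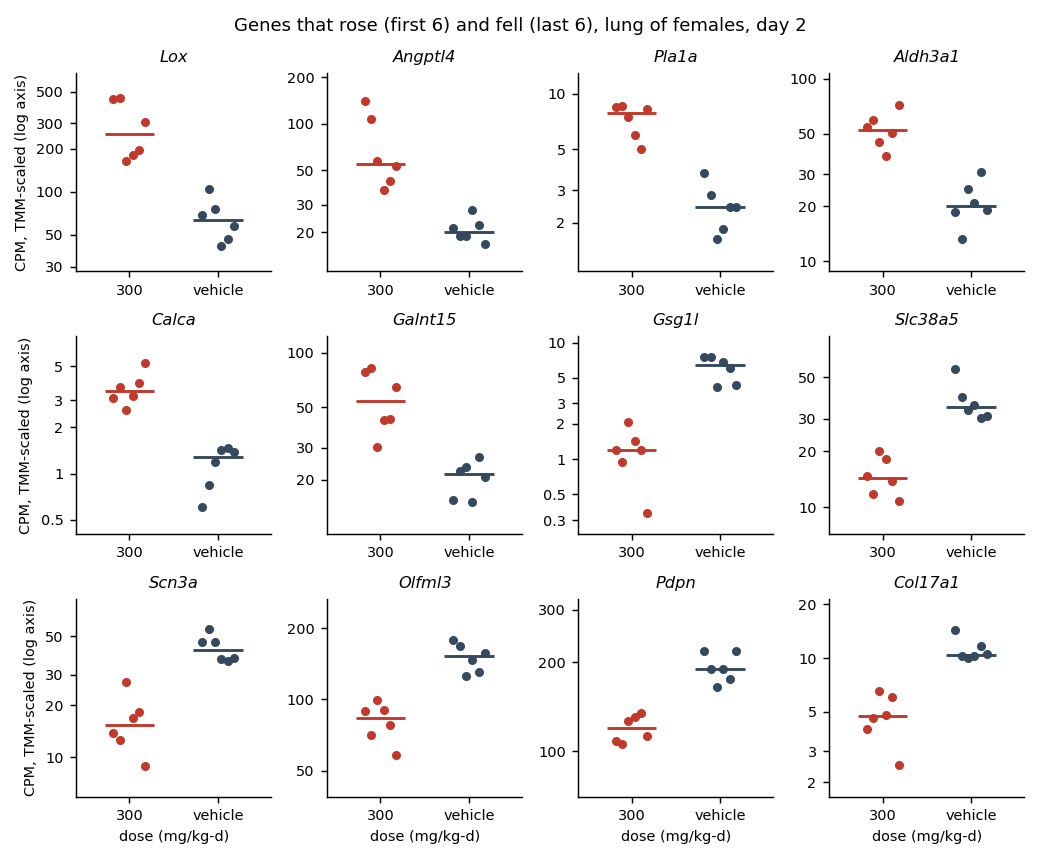
Level of 12 genes in each lung library of females at 300 mg/kg-d and vehicle (points, CPM on a log axis; lines are medians of 6). For each of Lox, Angptl4, Pla1a, Aldh3a1, Calca and Galnt15 the treated points lie above the vehicle points, and for each of Gsg1l, Slc38a5, Scn3a, Olfml3, Pdpn and Col17a1 they lie below. The 12 genes were picked and are all without overlap, which held for 10 of the 15 highest and 7 of the 15 lowest genes named.

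Genes of NK cells and cytotoxic lymphocytes were lower in the lungs at 300 mg/kg-d: of 14 measured members of the list 13 fell and none rose, with a median log2 fold change of -1.29 against 0.002 over all genes tested. Of all genes tested 5.09% were lower and 3.64% higher, and the list counts below are set beside these shares. Prf1 encodes perforin, which opens pores in target cells, and Gzma and Gzmb encode granzymes that enter through them. Prf1 had 1.32, 2.59 and 5.38 CPM at 300 mg/kg-d and 5.17, 7.51 and 8.83 CPM in vehicle lungs, a fall of 1.28 on the log2 scale (SE 0.25, adjusted p = 0.000752). Only the highest treated lung, replicate 75, passed the lowest vehicle lung. Gzma had 3.57, 7.25 and 15.6 CPM at 300 mg/kg-d and 14.6, 20.2 and 33.6 CPM in vehicle lungs, a fall of 1.42 (SE 0.28, adjusted p = 0.000794) with the same single overlap. Eomes and Tbx21, the transcription factors that set the NK cell programme, fell by 1.66 (adjusted p = 0.000173) and 1.20 (adjusted p = 0.00397). The receptor genes Klre1, Ncr1, Klrg1, Klrk1, Klrb1c and Klrd1 fell by 0.97 to 1.81. Klr genes lie in families with close copies, so reads could be split among them. Cma1, a chymase gene that mast cells also express, was the member that did not pass (log2 fold change -0.15, adjusted p = 0.85).

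The summed level of the NK list was 20.8, 29.9 and 64.99 CPM at 300 mg/kg-d and 64.03, 76.6 and 123.3 CPM in vehicle lungs. Replicate 75 held the 64.99 CPM, and without it the highest treated lung held 42.4 CPM. The same number of members, 13 of 14, was lower without 75 and 78, without vehicle 12 and without vehicle 10, and without 75 and 78 the median was -1.71. In whole lung, fewer cells of a type and less RNA per cell cannot be told apart. Ccl5 stood in this list and in the chemokine list. S1pr5, the sphingosine phosphate receptor by which NK cells leave tissues, and Klri2 were outside the list and fell by 1.32 (adjusted p = 0.00784) and 1.34 (adjusted p = 0.00117).

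The summed levels of T cell and of B cell genes in 5 of the 6 treated lungs lay below every vehicle lung, and replicate 75 lay above every one. Of 15 T cell genes 5 fell and none rose, among them Lck and Cd247, which carry the signal of the T cell receptor, with falls of 1.03 each (adjusted p = 0.00103 and 0.00117), and the co-receptor genes Cd4 (fall of 0.75) and Cd8b1 (fall of 1.16). The T cell sum was 68.2, 85.3 and 146.2 CPM at 300 mg/kg-d and 121.2, 133.6 and 143.4 CPM in vehicle lungs, with the 146.2 CPM in replicate 75 and at most 93.7 CPM in the others. Without 75 and 78 the number of T cell genes lower was 10. With all libraries 5.09% of all genes tested were lower. Of 11 B cell genes 1 fell, Fcer2a, the low-affinity IgE receptor gene, by 1.39 (SE 0.40, adjusted p = 0.021). Without 75 and 78 the number was 9, with a median of -1.62 against -0.52 with all libraries, and without vehicle 12 none passed. The B cell sum was 186 CPM in replicate 75, 44.4 to 62.6 CPM in the other treated lungs and 75.97 to 124.9 CPM in vehicle lungs. Replicate 75 also held the highest sum of large pleural and peritoneal macrophage markers, 943 CPM against 398 to 517 CPM in the other 11 libraries, and of antigen presentation genes, 5707 CPM. The part of these cells in the lymphocyte values was not tested.

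**Figure D2:**
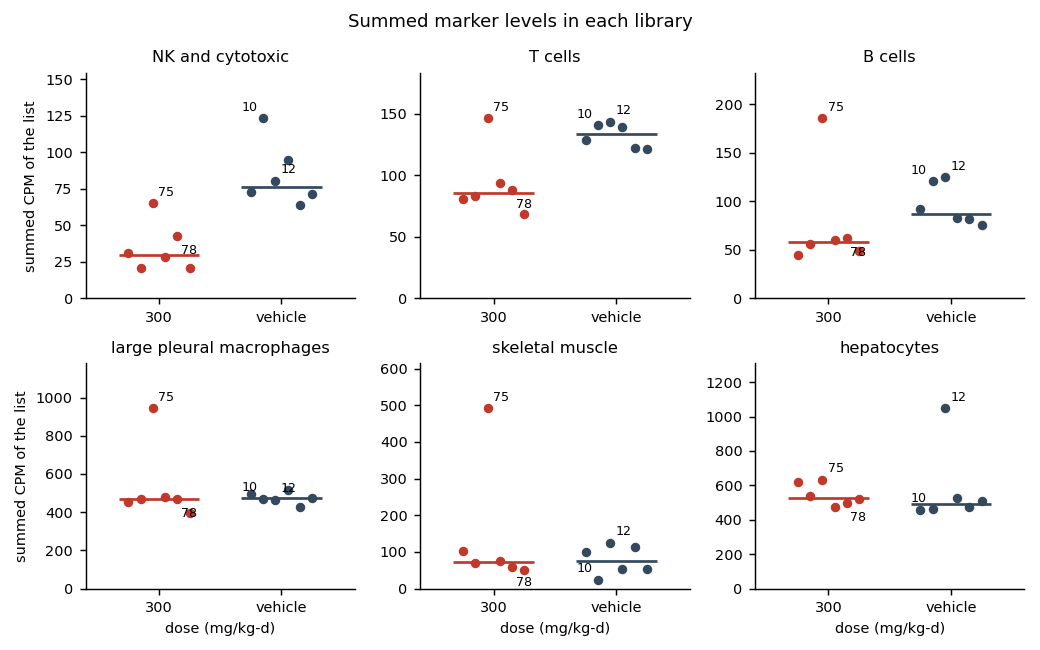
Summed CPM of 6 marker lists in each lung library of females at 300 mg/kg-d and vehicle (points; lines are medians of 6; 75, 78, 10 and 12 are replicate numbers). The NK and cytotoxic sum lies at 20.8 to 64.99 CPM in treated lungs and 64.03 to 123.3 CPM in vehicle lungs; replicate 75 stands highest in the T cell, B cell, pleural macrophage and muscle panels and vehicle 12 in the hepatocyte panel.

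Cells of the myeloid line present antigen and take up debris. Their counts stand beside 5.09% lower and 3.64% higher over all genes tested. Of 11 dendritic cell genes 4 fell, Fscn1 (an actin-bundling protein, by 0.82, adjusted p = 0.00136), Siglech of plasmacytoid dendritic cells (by 0.89), Ccr7, the receptor that guides them to lymph nodes (by 0.77), and Bst2. Ccr7 missed the threshold without vehicle 12 (adjusted p = 0.0533) and Bst2 in each of the 3 fits (0.05 without 75 and 78, 0.0518 without vehicle 12 and 0.0505 without vehicle 10). The summed level of the dendritic cell list was 100.6 to 125.9 CPM at 300 mg/kg-d and 134.2 to 161 CPM in vehicle lungs, without overlap. Median levels at 300 mg/kg-d and in vehicle lungs were 111.5 and 137.4 CPM for this sum. For Bst2 alone, which is also in the interferon list, they were 45.7 and 60.5 CPM. The sum without Bst2 was not tested. Of 13 genes of monocytes and interstitial macrophages 4 fell and 1 rose. Csf1r, the receptor for the macrophage growth factor CSF1, had 108.5, 122.4 and 137.1 CPM at 300 mg/kg-d and 141.04, 162 and 181 CPM in vehicle lungs, and fell by 0.39 (SE 0.06, adjusted p = 9.32e-05) without overlap. Cx3cr1 and Treml4, which mark patrolling monocytes, fell by 1.00 and 0.86, and Ly6c2 by 0.87. Its near-identical copy Ly6c1, which endothelium also expresses, rose by 0.85 (adjusted p = 0.000537), and reads could be split between them. None of 13 alveolar macrophage genes passed, and none of 8 neutrophil genes, whose median was 0.78 with sums of 51.3 to 307 CPM in treated and 64.7 to 170 CPM in vehicle lungs.

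Chemokine and interferon genes were measured beside the cell lists, with 5.09% of all genes tested lower and 3.64% higher. Of 23 cytokine and chemokine genes 4 fell: Cxcl14 by 0.77 (SE 0.14, adjusted p = 0.000367), Cxcl12, which stromal and endothelial cells make to hold lymphocytes, by 0.68 (adjusted p = 0.0157), Cxcl15 of the lung epithelium by 0.53, and Ccl5 by 1.29. Cxcl14 had 78.99 to 137.5 CPM at 300 mg/kg-d and 141.5 to 194 CPM in vehicle lungs, and Cxcl12 had 233 to 377 CPM at 300 mg/kg-d and 397 to 568 CPM in vehicle lungs, both without overlap. Cxcl15 lost its call in each of the 3 fits, with adjusted p = 0.133 without 75 and 78, 0.0571 without vehicle 12 and 0.209 without vehicle 10. Of 21 interferon-stimulated genes 3 fell, Mx1 (by 0.91), Bst2 (by 0.46) and Cxcl10 (by 1.17), with a median of -0.34. This count was 9 without 75 and 78 and 1 without vehicle 12 or vehicle 10, and Cxcl10 was among the losses (adjusted p = 0.055 without vehicle 12 and 0.196 without vehicle 10). Mx1 and Cxcl10 were low-count genes whose groups overlapped. Their medians were 0.82 and 0.39 CPM at 300 mg/kg-d and 1.71 and 1.17 CPM in vehicle lungs. None of 15 genes of interferon gamma response and antigen presentation passed, with a median of -0.23. Without 75 and 78, 2 of them were lower, with a median of -0.42, and without 75 alone 3.

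The circadian clock genes moved in opposite directions within the loop. Arntl and Clock rose, and Nr1d1, Nr1d2, Ciart, Bhlhe40 and Bhlhe41, which act against them, fell, so that 2 of 15 core genes were higher and 5 lower. Among 9 output genes Nfil3 rose and Dbp, Tef, Hlf and Tspan4 fell. Over all genes tested 3.64% were higher and 5.09% lower. Arntl (chromosome 7, 113207465 to 113314126, plus strand) had 6.61, 11.8 and 24.2 CPM at 300 mg/kg-d and 2.43, 3.40 and 4.53 CPM in vehicle lungs, a rise of 1.98 on the log2 scale (SE 0.45, adjusted p = 0.00295). Dbp, a transcription factor of the D-box, had 22.4, 50.998 and 112.1 CPM at 300 mg/kg-d and 129.6, 191 and 246 CPM in vehicle lungs, a fall of 1.78 (SE 0.51, adjusted p = 0.0211). Neither gene's groups overlapped. Ciart, a repressor of the clock, fell by 1.26 (SE 0.22, adjusted p = 0.000173), at 2.84 to 6.03 CPM against 7.84 to 14.8 CPM in vehicle lungs. Nfil3, which binds the same D-box sites as Dbp as a repressor, rose by 1.34 (SE 0.36, adjusted p = 0.0122), at 5.70 to 15.5 CPM against 3.22 to 5.50 CPM in vehicle lungs.

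Nr1d1, the repressor at the centre of the loop, lay lower in every treated lung than in any vehicle lung but varied much within both groups: 23.2, 70.9 and 135.2 CPM at 300 mg/kg-d and 144.4, 256 and 391.6 CPM in vehicle lungs (fall of 1.85, SE 0.59, adjusted p = 0.0393). Its call was lost without 75 and 78 (adjusted p = 0.0708), without 78 alone (0.0957), without vehicle 12 (0.0603) and without vehicle 10 (0.0784), and with a term for where a sample's number falls among 8 consecutive ones the fall was 2.27 (adjusted p = 9.36e-06). The labels do not say what that place marks. With the same term the adjusted p of Arntl was 5.87e-05 and that of Dbp 4.87e-05. The number of core genes lower was 3 without 75 and 78, and 2 without vehicle 12 or vehicle 10. Nr1d2 was lost in each of the 3 fits (0.0555, 0.0728 and 0.0683 without 75 and 78, vehicle 12 and vehicle 10), Bhlhe40 without vehicle 12 (0.0643) or vehicle 10 (0.0502), and Tef without 75 and 78 (0.0882) or vehicle 12 (0.0746). Dbp passed in these 3 fits and not without 78 alone (adjusted p = 0.0579). The part of the hour of collection in the clock values was not tested.

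The promoters of 3 clock genes are shown because each holds the sequence through which the loop is known to act on it. They were read from RefSeq (GRCm38.p6) as the 300 bases from 250 before to 50 after the annotated start, on the gene's strand, and capitals mark the motif. Arntl is at chr7:113207261-113207560 (plus strand, the second of 2 annotated starts) and Nfil3 at chr13:52980990-52981289 (minus strand). Capitals in both mark the RORE core TAGGTCA, which reads TGACCTA on the other strand. Ciart is at chr3:95882179-95882478 (minus strand), with 3 copies of the E-box CACGTG in capitals.
Arntl: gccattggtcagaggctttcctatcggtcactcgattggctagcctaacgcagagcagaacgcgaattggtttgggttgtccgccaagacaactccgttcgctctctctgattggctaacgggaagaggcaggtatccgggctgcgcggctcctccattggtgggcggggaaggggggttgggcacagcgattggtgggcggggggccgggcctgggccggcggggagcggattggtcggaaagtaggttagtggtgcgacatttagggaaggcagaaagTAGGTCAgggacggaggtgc
Nfil3: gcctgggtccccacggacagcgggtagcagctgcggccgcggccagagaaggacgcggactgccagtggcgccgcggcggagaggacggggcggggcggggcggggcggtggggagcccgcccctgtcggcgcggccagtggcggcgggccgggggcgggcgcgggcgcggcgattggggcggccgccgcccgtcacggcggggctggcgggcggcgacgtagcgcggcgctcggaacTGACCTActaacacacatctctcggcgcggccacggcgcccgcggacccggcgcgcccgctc
Ciart: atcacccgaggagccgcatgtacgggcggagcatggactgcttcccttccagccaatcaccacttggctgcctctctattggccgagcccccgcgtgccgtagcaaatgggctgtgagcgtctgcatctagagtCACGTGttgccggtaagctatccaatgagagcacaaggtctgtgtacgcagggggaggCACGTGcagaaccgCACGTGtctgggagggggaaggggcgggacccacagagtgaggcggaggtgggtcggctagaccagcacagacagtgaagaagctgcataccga
Both strands were searched. Over 32851 RefSeq promoters of this length the RORE core stood in 2.61% and the E-box in 7.15%. Of the 11 clock and output genes past the threshold with a promoter in the table, 2 held the RORE core, the genes Arntl and Nfil3 that rose, and 4 held the E-box, the genes Ciart, Bhlhe41, Tef and Tspan4 that fell. Nr1d1, Nr1d2, Dbp and Hlf fell as well and held no E-box in this window. Clock rose as well and held no RORE core at any of its 3 annotated starts. A gene was counted if any of its annotated starts held the motif, while the shares over all promoters count each promoter singly. The D-box TTATGNAA stood in no promoter of the 11 genes and in 3.38% of all promoters. A match describes the letters of this window and does not show that a factor binds there.

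Genes of fatty acid oxidation were among those that rose. Of 26 tested members of the list of PPAR-alpha targets and fatty acid oxidation 7 rose and none fell, 22 were positive, and the median was 0.20. Over all genes tested 3.64% were higher. The summed level of the whole list was 3327, 3668 and 3796 CPM at 300 mg/kg-d and 3073, 3166 and 3301 CPM in vehicle lungs, without overlap. Angptl4, which inhibits lipoprotein lipase, had 37.5, 55.4 and 141.2 CPM at 300 mg/kg-d and 16.9, 20.2 and 27.9 CPM in vehicle lungs, a rise of 1.80 (SE 0.46, adjusted p = 0.00913). Pdk4, the kinase that turns the cell from glucose to fat, had 16.2, 25.95 and 70.2 CPM at 300 mg/kg-d and 9.83, 10.8 and 13.9 CPM in vehicle lungs, a rise of 1.59 (SE 0.47, adjusted p = 0.0253). The groups of neither gene overlapped, and Pdk4 missed the threshold without vehicle 10 (adjusted p = 0.0523), as did Acot2 (0.0598). Acot1, an acyl-CoA thioesterase gene, rose by 1.15 (SE 0.25, adjusted p = 0.00242) and its near-identical copy Acot2 by 0.42. Acaa1b, a peroxisomal thiolase gene, rose by 0.85 (SE 0.21, adjusted p = 0.00695), while its copy Acaa1a did not pass (-0.07). Etfdh, which passes electrons to the respiratory chain, rose by 0.25. No promoter of the 5 called genes of this list in the table held the PPAR response element searched for, a direct repeat with 1 spacer base, which stood in 0.0396% of all promoters. Without vehicle 10 the count of higher genes was 4. Adipocyte markers were also high in the treated lungs, with a sum of 229, 293.9 and 431.7 CPM at 300 mg/kg-d and 90.01, 103.8 and 346.5 CPM in vehicle lungs, the highest vehicle value being that of replicate 12. Of 11 such genes 1 rose, 4 without vehicle 12, the median was 0.73, and no marker was at 0 in all 12 libraries. Their part in the values of the fatty acid genes was not tested.

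Of 18 glucocorticoid response genes 3 rose (Mt2, Pdk4 and Sult1a1) and none fell, with a median of 0.39, and without vehicle 10 the count was 2. Pdk4 stood also in the PPAR-alpha list and Sult1a1 in that of foreign compound metabolism, and their calls are counted there too. Over all genes tested 3.64% were higher. Mt2, a metallothionein that binds zinc and other metals, had 9.09, 12.99 and 22.2 CPM at 300 mg/kg-d and 3.86, 4.83 and 6.45 CPM in vehicle lungs, a rise of 1.52 (SE 0.44, adjusted p = 0.0214) without overlap. Fkbp5, a classic target of the receptor, had 47.9, 91.2 and 160 CPM at 300 mg/kg-d and 27.9, 40.5 and 59.6 CPM in vehicle lungs, and did not pass (log2 fold change 1.24, SE 0.50, adjusted p = 0.118).

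Of 29 genes of foreign compound metabolism 2 rose, against 3.64% of all genes, and none fell, while 22 were positive and the median was 0.11. The count was 3 without 75 and 78 or without vehicle 12, and 5 without 75 alone. The genes that rose were Aldh1a1, the retinal dehydrogenase of club cells, with 2129, 2330 and 2422 CPM at 300 mg/kg-d and 1230, 1621 and 1744 CPM in vehicle lungs (rise of 0.55, SE 0.09, adjusted p = 7.68e-05), and Sult1a1, a sulfotransferase gene, by 0.78 (adjusted p = 0.0137). Both were without overlap. Cyp2f2, the main cytochrome P450 of mouse club cells, had 3572 to 4436 CPM at 300 mg/kg-d and 3213 to 4414 CPM in vehicle lungs (log2 fold change 0.08, adjusted p = 0.621). Of the 5 AHR targets only Aldh3a1 passed. Cyp1a1, the best known target, had 9.91 to 116.7 CPM at 300 mg/kg-d and 53.3 to 170 CPM in vehicle lungs (-0.54, adjusted p = 0.535), and Cyp1b1 missed the threshold at 0.32 (adjusted p = 0.079). Of 18 targets of NRF2, the regulator of the antioxidant response, none passed, and the median was 0.03; Nqo1 had 7.52 to 10.9 CPM at 300 mg/kg-d and 7.25 to 10.98 CPM in vehicle lungs.

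Among epithelial cells, those of alveolar type 1 held the most calls. Of 14 genes 6 fell and none rose (median -0.21), and each of the 6 was without overlap: Pdpn, Gprc5a, Aqp5, Emp2, Igfbp2 and Vegfa. Of all genes tested 5.09% were lower and 3.64% higher, and 3.76% lay lower without overlap. Pdpn (chromosome 4, 143267431 to 143299564, minus strand) encodes podoplanin on the surface of these cells and had 105.2, 120 and 134.4 CPM at 300 mg/kg-d and 164, 189 and 218 CPM in vehicle lungs, a fall of 0.69 (SE 0.10, adjusted p = 7.17e-06). Aqp5, the water channel, fell by 0.47 (SE 0.11, adjusted p = 0.00332), and Gprc5a, a receptor known as a lung tumour suppressor in mice, by 0.43 (SE 0.08, adjusted p = 0.000338). Ager, an abundant marker of the same cells, did not pass (-0.19, adjusted p = 0.358). Igfbp2 lost its call without 75 and 78 (adjusted p = 0.0682) or vehicle 10 (0.0541) and Vegfa without vehicle 12 (0.0546) or vehicle 10 (0.051), so that the count was 5, 5 and 4 in these fits. The summed level was 13190 to 14090 CPM at 300 mg/kg-d and 14530 to 16270 CPM in vehicle lungs. Of 13 type 2 genes only Cxcl15 passed, and in none of the 3 fits, and Sftpc, the surfactant protein C gene, did not (-0.18, adjusted p = 0.514). Of 10 club cell genes Aldh1a1 rose, and Scgb1a1 did not pass (0.06, adjusted p = 0.878). Of 15 ciliated cell genes only Ccdc39 passed, at 0.46, and not without 75 and 78 (adjusted p = 0.146) or vehicle 10 (0.0762). The type 2, club and ciliated lists thus held 1 call each, too few to set apart from the shares over all genes.

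Vessel and matrix lists held calls in both directions. In arteries, veins and lymphatics Slc6a2, the noradrenaline transporter, rose by 0.96 (SE 0.21, adjusted p = 0.00255), at 107.9 to 186 CPM against 57.998 to 96.1 CPM in vehicle lungs, and Gja5, a connexin of arteries, fell by 0.96 (SE 0.24, adjusted p = 0.00702), at 35.3 to 54.8 CPM against 77.8 to 117.9 CPM in vehicle lungs. Neither pair of groups overlapped. Apln, the apelin gene of aerocytes, the capillary cells of gas exchange, fell by 0.79 (adjusted p = 0.00262). Of 33 collagen and matrix genes 2 rose and 6 fell, 23 were negative and the median was -0.14. Over all genes tested 3.64% were higher and 5.09% lower. Beside Lox, Timp3, an inhibitor of matrix proteases, rose by 0.46 (adjusted p = 0.0155), at 2640 to 3489 CPM against 1953 to 2559 CPM in vehicle lungs. Tnc, the tenascin C gene, fell by 1.27 (SE 0.29, adjusted p = 0.00335), Col6a3 by 0.81, Col15a1 by 0.61, Loxl1 by 0.56, Col18a1 by 0.43 and Fbln5 by 0.40. The count of lower matrix genes was 4 without 75 and 78, 7 without vehicle 12 and 2 without vehicle 10. Loxl1 was lost in each of these fits (adjusted p = 0.0817, 0.0502 and 0.223), Fbln5 without 75 and 78 (0.0506) or vehicle 10 (0.0572), and Col6a3 (0.051) and Col15a1 (0.0593) without vehicle 10.

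Further pathway lists are read against 3.64% higher and 5.09% lower among all genes. Of 14 hypoxia response genes Adm and Bnip3 rose and Vegfa and Pfkfb3 fell; Adm, which encodes the vessel-widening peptide adrenomedullin, rose by 1.37 (SE 0.26, adjusted p = 0.000461). Of 23 cholesterol synthesis genes Pmvk rose and Srebf2, Dhcr7, Nsdhl and Sc5d fell, by 0.30 to 0.55, and of 19 fatty acid synthesis genes the desaturases Fads2 and Fads1 fell, by 0.57 and 0.22. Of 16 p53 targets Zmat3 rose by 0.23, and of 15 genes of the integrated stress response Vldlr rose and Shmt2 fell. Without vehicle 12 or vehicle 10 the hypoxia list held 1 higher and 1 lower gene and the cholesterol list none higher and 2 lower. Bnip3, Vegfa, Pmvk, Nsdhl, Sc5d and Zmat3 lost their calls in both of these fits (adjusted p = 0.051 to 0.101), Sc5d also without 75 and 78 (0.0541), and Vldlr without 75 and 78 (0.0775) or vehicle 10 (0.0562). None of 22 cell cycle genes, 13 heat shock chaperones, 12 immediate early genes, 48 ribosomal protein genes, 40 respiratory chain genes or 31 proteasome genes passed. The medians of the last 3 lists were -0.13, -0.13 and -0.12.

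**Figure D3:**
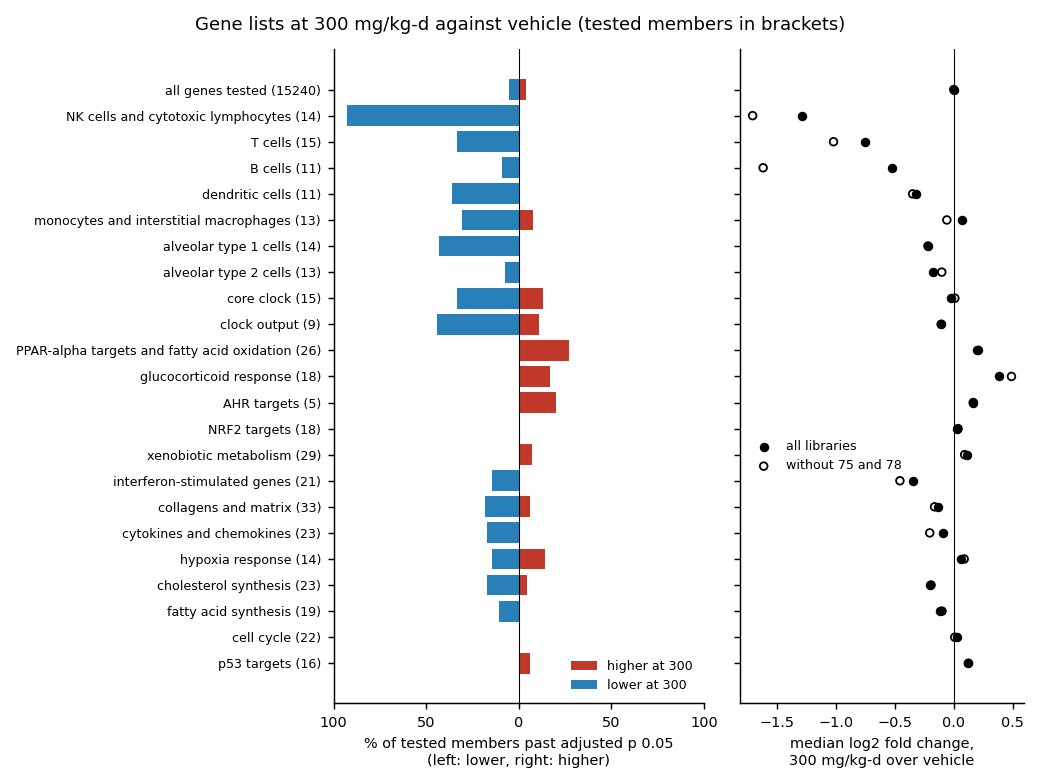
Left, share of tested members of each list (number in brackets) past an adjusted p of 0.05 at 300 mg/kg-d, lower to the left and higher to the right; right, median log2 fold change with all libraries (filled) and without 75 and 78 (open). Over all 15240 genes 3.64% were higher and 5.09% lower; 13 of 14 NK genes were lower and 7 of 26 PPAR-alpha genes higher.

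Several of the steepest fold changes rested on 1 library. Myh1, a myosin of fast muscle, had 61.8 CPM in replicate 75 and a median of 0.416 CPM at 300 mg/kg-d, against 0.119 to 0.622 CPM in vehicle lungs, and 6 of 11 skeletal muscle genes were called with all libraries and none without 75 and 78. Of 14 genes of large pleural and peritoneal macrophages 8 were higher and 1 lower with all libraries, and none was higher and 2 were lower without 75 and 78. Prg4, a lubricant protein gene that they share with mesothelium and joints, had 1.65, 7.76 and 178 CPM at 300 mg/kg-d, the highest in replicate 75, and 0.665, 0.791 and 1.13 CPM in vehicle lungs. Its groups did not overlap, but its call was lost without 75 and 78 (adjusted p = 0.18). On the other side, Alb, the albumin gene, had 257 CPM in vehicle 12 and a vehicle median of 1.58 CPM, against 0.695 to 2.50 CPM at 300 mg/kg-d. Of 6 hepatocyte genes 3 were lower with all libraries, and none was lower and 1 higher without vehicle 12.

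Over the doses, the lungs of females at 50 mg/kg-d held no gene past the threshold in edgeR's test (441 at an unadjusted p under 0.05), those at 100 mg/kg-d 1 gene (0.00656%; Mpv17l, lower by 0.44), those at 200 mg/kg-d 825 genes (5.41%; 464 higher, 3.04%, and 361 lower, 2.37%) and those at 300 mg/kg-d 1330. All doses share the 6 vehicle libraries. Gsg1l averaged 6.08 ± 1.54 CPM in vehicle lungs, 6.18 ± 1.90 CPM at 50 mg/kg-d, 4.19 ± 1.20 CPM at 100, 1.75 ± 0.84 CPM at 200 and 1.20 ± 0.57 CPM at 300 mg/kg-d (SD, n = 6 each). Lox averaged 65.9 ± 22.6, 67.4 ± 20.9 and 68.9 ± 12.1 CPM in vehicle lungs and at 50 and 100 mg/kg-d, 393 ± 576 CPM at 200 and 290.3 ± 130.3 CPM at 300 mg/kg-d, so that the spread at 200 mg/kg-d exceeded the mean. Aldh3a1 averaged 21.3 ± 6.0, 25.4 ± 3.2, 35.4 ± 5.0, 50.5 ± 15.4 and 53.1 ± 11.6 CPM from vehicle to 300 mg/kg-d. Of the NK list 7 genes were lower at 200 mg/kg-d, of the type 1 list 5, and of the NRF2 list 6 were higher there, where none passed at 300 mg/kg-d.

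The doses of 300 and 200 mg/kg-d were also compared with each other, without the vehicle group. Of 15240 genes 5 (0.0328%) passed, 2 higher (0.0131%) and 3 lower (0.0197%), and none of them belongs to the NK, type 1 or NRF2 list: Myh1 and Rassf9 were higher at 300 mg/kg-d, and Tpt1 (fall of 0.74, adjusted p = 0.0115), D19Bwg1357e and Gm6548 lower. Rassf9 was higher by 0.46 (adjusted p = 0.0385), and Myh1 had its high value in replicate 75 alone. At an unadjusted p under 0.05 there were 1571 genes, and DESeq2 called 48. The 5 calls became 73 without replicate 64 of the 200 mg/kg-d group, 15 without 75, 1 without 78 and 0 in a fit of these groups alone.

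**Figure D4:**
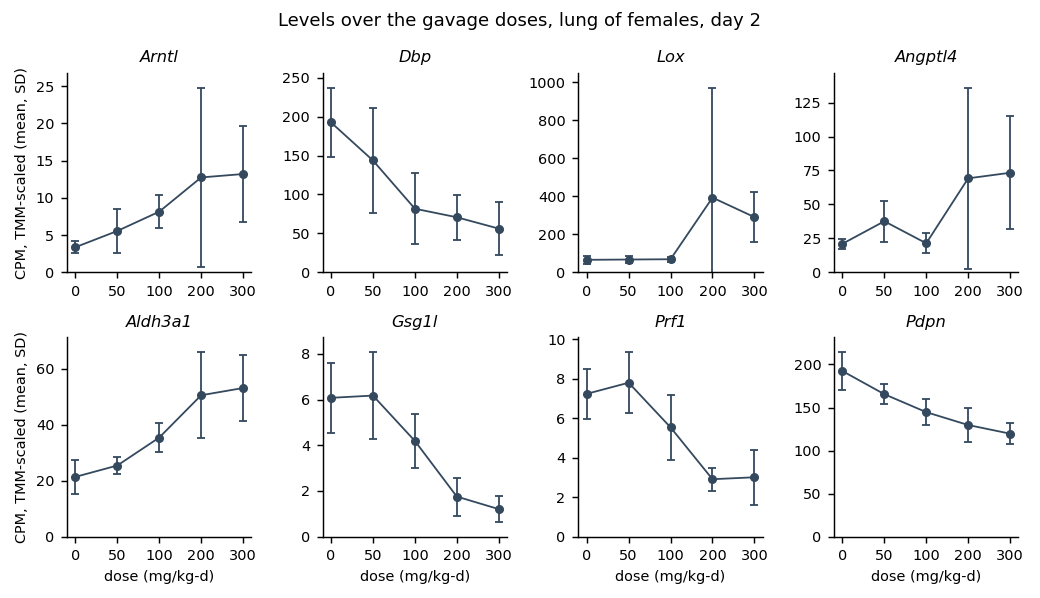
Mean CPM (points) with the SD of 6 lung libraries (bars, cut at 0) of 8 genes over the gavage doses in females, with vehicle at 0 mg/kg-d. Gsg1l averages 6.08 CPM in vehicle lungs and 1.20 CPM at 300 mg/kg-d, and Lox stays at 65.9 to 68.9 CPM up to 100 mg/kg-d.

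In males at 300 mg/kg-d 32 genes (0.21%) passed against male vehicle lungs, 16 higher and 16 lower (0.105% each). Of these, 10 higher and 16 lower genes were called in the same direction in females, which is 81.2% of the male calls and 1.95% of the female calls, and none was called in opposite directions. They include Aldh3a1, Acaa1b and Ly6c1 among the higher genes and Gsg1l, Nt5e, Prf1, Pdpn, Emp2, Csf1r, Olfml3 and Gpm6a among the lower ones. Of the genes called higher in females, 85.8% were positive in males (median 0.12), and of those called lower 87.5% were negative (median -0.16). No gene passed the test of the difference between the sexes with edgeR or DESeq2, and 1964 had an unadjusted p under 0.05 in edgeR. Lox rose by 2.14 in females and had 0.76 in males (adjusted p = 0.341), and the difference of 1.38 (SE 0.55) had an adjusted p of 0.347. Prf1 fell by 1.28 in females and by 1.42 in males (adjusted p = 0.0117), and Gsg1l by 2.36 and 1.75 (adjusted p = 0.00275 in males).

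**Figure D5:**
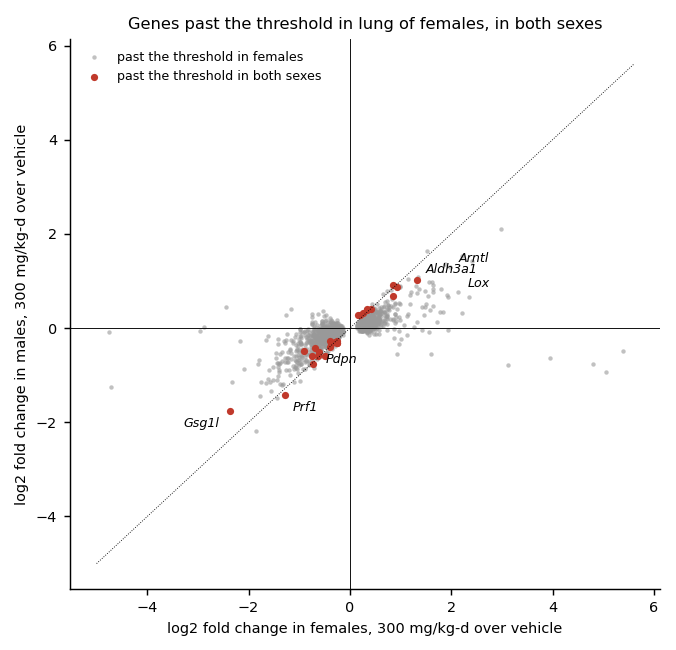
Log2 fold change at 300 mg/kg-d over vehicle in lung, females on the x axis and males on the y axis, for the 1330 genes past the threshold in females (grey) and the 26 past it in both sexes (red); the dotted line marks equal values. The red points lie in the quadrants of equal sign, with Gsg1l at -2.36 and -1.75.

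The liver of females at the same dose was measured at the same time. In a joint fit of 15256 genes, 4977 (32.6%) were called in liver and 1636 (10.7%) in lung, and the effect differed between lung and liver in 1971 genes (12.9%), 579 with the higher (3.8%) and 1392 with the lower (9.12%) fold change in lung. With RLE scaling this split was 749 and 1115. Without vehicle 12 in both tissues it was 565 and 1037. The smallest adjusted p-values of the difference belonged to Vcam1, Arhgap5, Itpr1 and Tnpo1, which rose in liver by 0.97, 1.29, 1.00 and 0.89 and did not pass in lung (-0.22, 0.28, 0.02 and 0.29). Of the 15 highest lung genes 1, Mt2, was called in the same direction in liver, with a rise of 3.21, and of the 15 lowest none. Ttyh1, Angptl7, Pdk4 and Pla1a differed between the tissues among the first and Gsg1l, Tlr12 and Ccl5 among the second. Of the NK list no gene passed in liver (median -0.02), and of 26 PPAR-alpha genes 14 rose there and none fell. Of the 15240 genes tested in lung, 2683 were higher and 2174 lower in liver. The effect itself differed between lung and liver in 2 of 14 NK genes and 4 of 26 PPAR-alpha genes.

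Feed was a longer and different exposure of other mice. Lungs of females fed 2500 ppm held 5 genes past the threshold after 5 days (0.0319% of 15675, from 5 libraries) and 19 after 28 days (0.121% of 15646). None of the first and 1 of the second, Bst2, was called in the same direction as at 300 mg/kg-d, and 4 muscle genes (Tnni2, Mylpf, Tnnt3 and Atp2a1) were called in the opposite one, all 4 of them high at 300 mg/kg-d in replicate 75 alone. Nqo1, an antioxidant enzyme gene, rose by 0.97 after 5 days and by 0.72 after 28 days of feed and did not pass at 300 mg/kg-d by gavage (0.05, adjusted p = 0.878). No NK gene passed after 5 or 28 days of feed, with medians of -0.06 and -0.03.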

How the data were processed

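RNA of whole lung and liver was sequenced after library preparation with a TruSeq stranded mRNA kit, per the labels' protocols. The tables deposited by the authors hold unnormalized counts for 24421 gene symbols each, made with Trimmomatic, Bowtie2, SAMtools and HTSeq on the mouse build mm10, per the submitters' processing notes. The sources used here name no version, annotation or strand setting. Without the strand setting, overlapping and antisense genes cannot be told apart. Rows of other files were used only for the comparisons with liver and feed, and 1 column without a name in the day 28 lung table was not used.

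The 60 lung libraries of day 2 were fitted together with edgeR 4.0.16 (R 4.3.3): filterByExpr, TMM, a quasi-likelihood fit with robust spread and 1 mean for each of 10 groups, which left 15240 genes. Adjusted p is the Benjamini-Hochberg value over the genes of a contrast, and the threshold was 0.05. The SE was derived from the log2 fold change and its F statistic, as the ratio of the first to the root of the second. Lung and liver were joined on the gene symbol in a fit of 24 libraries, and feed was fitted within the table of each day. Coordinates are from GENCODE for GRCm38.p6. No pair of the 12 libraries was identical. DESeq2 1.42.0 was an alternative, with the others listed in the last part.

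The comparison, the lists and the rule for named genes were chosen with earlier results of these data known. Named are, among genes past the threshold also without 75 and 78 and without vehicle 12 and with at least 2 CPM in the higher group, predicted gene models left out, the 15 highest, the 15 lowest and the 6 smallest p-values in each direction; further up to 4 called members of each list, the 4 smallest p-values of each difference test, and up to 6 genes for each library that stood apart. List members named beyond these were chosen after their values were seen. Some called list members are counted but not reported here by name. Lists were described by counts, medians and sums, with no set test. In counts simulated for this comparison over 15161 genes, 64 genes were changed 1.5-fold, 64 were changed 2-fold and 72 were changed 4-fold. The test called 70.3% of the 1.5-fold changes, 92.2% of the 2-fold ones and all 72 of 4-fold. Of 185 calls 4.86% were false. These shares describe the simulated counts. Whether they hold for the calls in the measured libraries, several of which stood apart, was not tested.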

Additional observations from a re-analysis of the deposited data

Results flagged for a closer look

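Libraries far from the rest of their group of 6 were sought in 378 groups of values, for the genes named and the list sums, on log2(CPM + 0.1), by the gap to the next library as a share of the group's range. A gap above Dixon's 95% critical value was found in 33 groups (8.73%), where chance gives about 1 in 20. The 2 shares cannot be set against each other, since some of the genes were named because 1 library stood apart in them.

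Replicate 75 (300 mg/kg-d) was the highest of its group in 15 of them. Its gap was 0.806 for Myh1, 0.742 for Tnnt3, 0.904 for Mylpf and 0.855 for Tnni2, and 0.681 for the skeletal muscle sum. Among immune genes the gap was 0.678 for Ms4a4c, 0.799 for Ccr7, 0.653 for Cd247 and 0.694 for Cd8b1, and 0.760 for the B cell sum. It was 0.823 for Selp, 0.780 for the pleural macrophage sum and 0.721 for the sum of antigen presentation genes. Txndc5 (0.831) and Bhlhe41 (0.635), which both fell at 300 mg/kg-d, were also highest there among the treated lungs.

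Vehicle replicate 12 was the highest of its group for Alb (0.722), Ahsg (0.843), Serpina3k (0.651), Pzp (0.731), Apob (0.801), Gc (0.803) and the hepatocyte sum (0.836). Vehicle replicate 10 was the highest for Klri2 (0.627), Klre1 (0.674) and Cxcl10 (0.640) and the lowest for Prmt8 (0.663). Replicate 79 was the lowest treated lung for Cdk5rap1 (0.783) and for the sums of capillary endothelium (0.659), aerocytes (0.654) and monocytes (0.715). Single gaps were those of replicate 74 for Sc5d (0.686, lowest), replicate 78 for Aqp5 (0.680, lowest) and vehicle replicate 16 for Tnni2 (0.795, lowest).

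The effect of 300 mg/kg-d differed between lung and liver of females in 14 of 44 named genes checked, by the interaction test at an adjusted p of 0.05. The count describes genes chosen for their values, since Vcam1, Arhgap5, Itpr1 and Tnpo1 have the smallest p-values of this test and most others are the leading genes in lung. The fold change in lung minus that in liver, on the log2 scale, was 3.01 for Ttyh1, 1.765 for Angptl7, 1.82 for Pdk4, 1.35 for Pla1a, 1.86 for Gria3 and 0.62 for Bbs9. It was -2.63 for Gsg1l, -1.29 for Tlr12, -1.38 for Ccl5, -0.94 for Olfml3, -1.21 for Vcam1, -1.02 for Arhgap5, -1.002 for Itpr1 and -0.62 for Tnpo1.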

How the results depend on the processing

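The count of 1330 genes stayed between 961 and 1689 with RLE factors, no filter, DESeq2, the term for a number's place among 8, a removed length trend, or without 75, 78, both, vehicle 12, all 3 or vehicle 10, the last chosen after seeing the data. Fitted on the 2 groups compared alone it was 2729, 1322 higher and 1407 lower, and 1229 of the 1330 were among them. Against 200 mg/kg-d the 5 calls became 3 without the filter, 48 with DESeq2, 0 with only the groups compared (edgeR, 1282 at an unadjusted p under 0.05), and in fits without single libraries between 1 and 73: 15 without 75, 1 without 78, 1 without 75 and 78, and 73 without replicate 64 of the 200 mg/kg-d group. No gene differed between the sexes in any fit. Against 1971 genes that differed between lung and liver, 739 did (656 of them shared) for the 8 title numbers found in both tissues with a replicate block. Without the block 726 did (681 shared). Libraries of the same title number correlated between tissues by 0.034 to 0.175, so that pairing was not shown, and the block moved the count little. DESeq2 put 40.9% of the tissue differences higher in lung, against 29.4% with TMM. Without vehicle 12 in both tissues 1602 genes differed, 35.3% of them higher in lung. The 5 calls of feed at day 5 were 3 to 7 when 1 library was left out, 3 of them without 1 of the 5 treated libraries. The cause of these changes was not tested.

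Among the named genes past the threshold, 84 (65.1%) stayed past it in every setting. This share does not measure stability. The leading genes were named only if they passed without 75 and 78 and without vehicle 12. Some other genes were named because they lost a call. Most losses came with libraries left out: 22 genes without 78, 25 without vehicle 10 and 21 without vehicle 12. The sign turned for muscle and liver genes. Tnnt3 was at -0.11 without 75 and 78, Mylpf at -0.24 without 75 and 78, -0.17 without 12, 75 and 78, and between -0.28 (without 75) and 1.85 (without 78) with single libraries left out, and Tnni2 at -0.28, -0.24, and -0.22 to 2.10 in the same fits. Without 12, 75 and 78 Ahsg was at 0.027 and Serpina3k at 0.28, and against 200 mg/kg-d Myh1 was at -0.14 without 75 and 78 and between -0.34 (without 75) and 4.84 (without 78) with 1 library left out. At these totals a gene at 1 CPM has about 15 counts a library, and calls among 6 higher and 17 lower genes under 1 CPM rest on few reads. Intervals were not used.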

Other observations

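The adipocyte gene that rose was Lipe, the hormone-sensitive lipase gene, by 0.73 (SE 0.15, adjusted p = 0.00114). The counts below stand beside 5.09% lower and 3.64% higher over all genes tested. Mesothelial genes of the pleural surface held 2 calls of 9, with falls of 0.50 for Gpm6a (adjusted p = 0.00615) and 0.68 for Lrrn4 (adjusted p = 0.0333). Lrrn4 lost its call without 75 and 78 (0.141), without vehicle 12 (0.0558) and without vehicle 10 (0.0739), leaving 1 call in each of these fits. Of 14 fibroblast genes 1 rose and 2 fell. Pdgfra, the receptor of platelet-derived growth factor, rose by 0.39, and Col13a1 and Inmt fell by 0.66 and 0.45. Of 10 genes of the general capillary list 2 fell, Cxcl12 and Cadm1, an adhesion molecule, the latter by 0.30. Of 10 aerocyte genes Apln fell and Fibin rose, the latter by 0.47. Fibin missed the threshold without 75 and 78 (adjusted p = 0.0525), vehicle 12 (0.064) and vehicle 10 (0.0683), and Cadm1 (0.0591) and Pdgfra (0.0502) without vehicle 10. None of 10 heart muscle genes, 10 platelet genes or 6 plasma cell genes passed.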
